A study of Rattus norvegicus with 14 samples.

Results

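The comparison covered here was SC-560 at 1 µM against its solvent, DMSO, in rat IEC-6 cells after 72 h. It used 8 of the 14 arrays of the series, 4 per group, and 16981 of the 31099 probe sets in the file, those that were no controls and reached a signal of 100 on at least 2 of the 8 arrays. They represented 9622 named genes. The arrays were 1-colour Affymetrix arrays, and the values are linear signals. IEC-6 is a line of untransformed epithelial cells grown from the crypts of rat small intestine. Per the labels the groups shared cells and time and differed in treatment, and no allele or transgene was involved. Monolayers had been pooled before hybridisation to obtain enough material and several chips were run per biological sample, so a p-value here speaks of how arrays scatter, and that scatter may be technical. Each group held arrays 1 and 2, without a suffix, and arrays 1b and 2b, with the suffix b. What the suffix stands for is not given in the sources used here; arrays with and without it are called the 2 label sets.

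SC-560 is an inhibitor that prefers cyclooxygenase-1 over cyclooxygenase-2. Both enzymes turn arachidonic acid, released from membranes by phospholipases, into prostaglandin H2, from which terminal synthases make prostaglandin E2 and the other prostanoids. In the intestine these prostanoids support the mucosal barrier and the closure of wounds, which begins with the migration of epithelial cells over the gap. The study used SC-560 as the drug that lacked an effect on this migration, so the question of the comparison is which transcripts, if any, differ when a cyclooxygenase inhibitor is present and migration is not slowed.

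The label sets differed far more than the treatments. The first principal component of the 8 arrays held 80.2% of the variance and separated the sets, and 9604 probe sets (56.6%) differed between them. The 3' to 5' signal ratio of actin, which reflects RNA quality, was 1.498 to 1.639 on arrays lacking the suffix and 1.249 to 1.338 on the others, and it overlapped between DMSO and SC-560 in both sets. The same ratio of Gapdh was 0.948 and 0.945 against 0.976 and 0.902 in the set lacking the suffix, and 1.0 and 0.997 with DMSO against 0.973 and 0.955 with SC-560 in set b, where the groups did not overlap. Its part in the results was not tested. The share of probe sets with a signal of at least 100 was 49.68% to 50.66% on the DMSO arrays and 50.26%, 51.11%, 52.4% and 52.41% on SC-560 arrays 1, 2, 1b and 2b. With the set means removed, the first component (24.4% of the variance) put the DMSO arrays between -11.5 and -4.05 and SC-560 arrays 2, 1b and 2b between 8.66 and 13.7. SC-560 array 1 lay at -4.41, among the DMSO arrays, so results are also given without it where it matters.

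The epithelial label was checked against marker genes. Krt8, a keratin of simple epithelia, had signals of 3276 to 6504 over the 8 arrays, and Cdh1, the adhesion protein E-cadherin, 3015 to 7967. Of the 20 epithelial markers 8 did not pass the filter, among them Krt18, at 54.5 at most, and Epcam, at 77.2 at most. The mesenchymal genes Vim (21944 to 24954) and Col1a2 (8745 to 26221) were among the strongest signals. Cdx2, which encodes an intestinal transcription factor, had 62.5 to 124 in the set lacking the suffix and 3072 to 3660 in set b, so the 2 label sets were not alike in this marker. The leukocyte gene Ptprc and the endothelial gene Pecam1 were at 30.5 and 14 at most.

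No transcript passed the test for a difference between SC-560 and DMSO. Limma called 0 of 16981 probe sets (0%) at an adjusted p under 0.05, with 0.0552 as the smallest adjusted p. Before adjustment 1610 probe sets had a p under 0.05, 987 above and 623 below DMSO, where 849 would be expected if no transcript differed. Over named genes, using the brightest probe set of each, 513 lay above DMSO at that p (5.33%) and 380 below (3.95%). Calls appeared under 5 of the other settings tried without leaving out single arrays, up to 154 when arrays sharing group and label set were treated as a random block (estimated correlation -0.3). The changes were small. They ranged from -0.65 to 0.87 on the scale of log2(signal + 50), which understates changes of dim probe sets. On that scale 31 probe sets reached 1.5-fold, and none reached 2-fold.

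The fit also bounds how large a missed difference averaged over both label sets could be, on the log2 scale with the added constant. The 95% interval of the log2 change had a median half-width of 0.193, and it lay within 1.5-fold either way for 94.7% of the probe sets and within 2-fold for 99.8%. For the 12887 probe sets with a mean signal of at least 200, the interval of 98.9% lay within 1.5-fold. These intervals describe these arrays of pooled cultures and leave out the spread between independent cultures. They bound neither the ratio of the signals themselves, which can be larger for dim probe sets, nor the change in a single label set. Syp, for example, had mean signals of 111 with DMSO and 260 with SC-560, which is 1.8-fold on this scale. Its log2 change was 0.18 in the set lacking the suffix and 1.52 in set b.

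The sign of the change depended on the signal. Among 278 probe sets with a mean of 10000 or more, 90.3% lay above 0, the median log2 change was 0.078, and 46% were above DMSO at an unadjusted p under 0.05. Among the 2593 between 1000 and 2000 the median was -0.023, and 38.3% lay above 0. Dim probe sets again lay higher, with a median of 0.092 over the 1261 with a mean under 100. The same shape appeared in both label sets, with medians of 0.069 and 0.091 for the brightest probe sets. Array scaling sets the mean of all signals to 1 target and leaves such differences in the distribution of signals between arrays in place. Their part in the results below was not tested beyond the values given after quantile normalization, which forces the same distribution on all arrays.

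**Figure D1:**
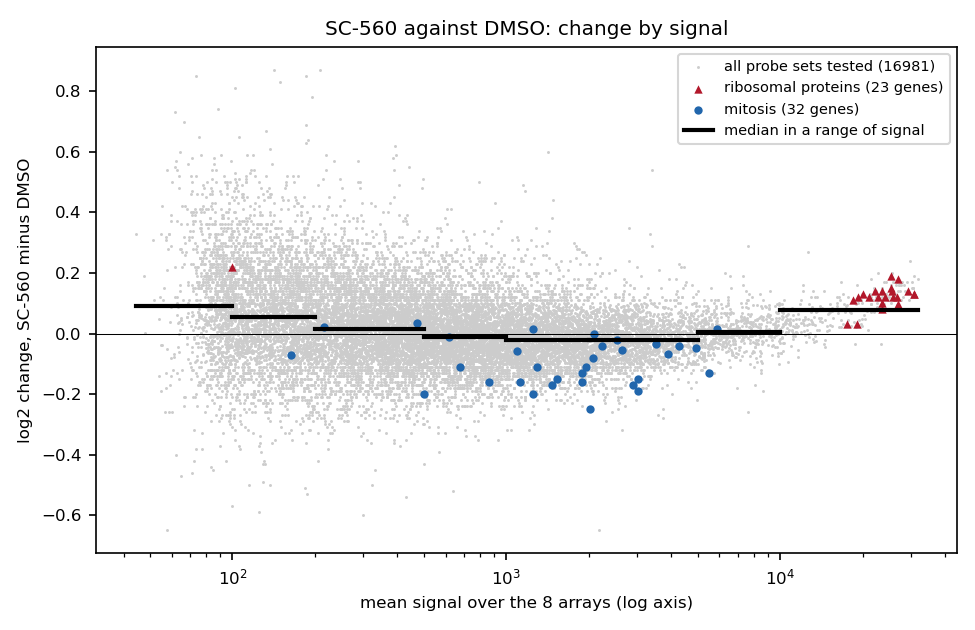
Log2 change of SC-560 against DMSO (vertical axis) by mean signal over the 8 arrays (horizontal log axis) for 16981 probe sets in grey, 23 ribosomal protein genes as red triangles and 32 mitotic genes as blue circles; black bars mark the median in each range of signal. The bars lie at 0.092 on the left, at -0.023 between 1000 and 2000 and at 0.078 above 10000, where 22 of the 23 ribosomal genes are; after quantile normalization the median of the ribosomal genes was -0.0011.

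The leading transcripts were an unnamed probe set and a collagen gene, both with an adjusted p of 0.0552 (limma). The probe set 1375422_at, which the annotation used here does not list, had signals of 4516, 5619, 4863 and 4573 on DMSO arrays 1, 2, 1b and 2b and 9062, 6600, 9475 and 7502 on the SC-560 arrays in the same order. Every SC-560 array lay above every DMSO array, with a log2 change of 0.72 ± 0.10 (standard error). Another unlisted probe set, 1392025_x_at, had 778, 954, 1438 and 1332 against 1619, 1158, 2206 and 1920 (0.60 ± 0.095, adjusted p 0.128). Both were picked after their values were seen, as the probe sets with the first and the third smallest p. Of the 30 probe sets with the smallest p, 24 lay above DMSO and 9 had no gene name here.

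Col6a1 encodes a chain of type VI collagen, which forms beaded filaments around cells. It had signals of 579, 619, 1770 and 1996 on the DMSO arrays and 879, 785, 2517 and 2652 on the SC-560 arrays. The groups overlapped across the label sets and were apart within each, and the log2 change was 0.44 ± 0.063, at 0.44 without the suffix and 0.45 with it. Its partner chain Col6a2 had 588, 575, 1522 and 1456 against 710, 600, 1859 and 1919, a log2 change of 0.24 ± 0.069 (unadjusted p 0.0034, adjusted p 0.299). Col6a1 had an adjusted p of 0.0487 among the probe sets with a signal of at least 200 on 4 arrays and of 0.0511 after quantile normalization, and 0.327 without the intensity trend.

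Other genes of the matrix went both ways. Of 39 measured genes of the extracellular matrix list, 26 lay above 0 and 13 below. At an unadjusted p under 0.05, 4 were above and 3 below DMSO (5.33% and 3.95% of all genes). The median of 0.033 compares with 0.0033 over all genes. Fbn1, which encodes the microfibril protein fibrillin-1, had 6385, 6117, 9886 and 10708 with DMSO and 4744, 4911, 9451 and 8973 with SC-560. It was lower in each label set, with a log2 change of -0.26 ± 0.05 (adjusted p 0.166), and had an adjusted p of 0.0443 when each array was centred on its median. That centring put 262 probe sets above and 2963 below DMSO at an unadjusted p under 0.05. Htra3, a secreted serine protease, had 641, 560, 1192 and 1328 against 905, 728, 1676 and 2162 (0.49 ± 0.092, adjusted p 0.166), while another probe set of this gene had -0.12. Tgm2, the tissue transglutaminase that cross-links proteins of the matrix, had 215, 243, 439 and 423 against 321, 373, 675 and 567 (0.49 ± 0.088, adjusted p 0.166). The other probe set of Tgm2 had 0.16. Fras1, a basement membrane protein, had the largest positive log2 change of the named genes (0.87 ± 0.18, adjusted p 0.192), from 164, 256, 96.4 and 50.6 to 352, 268, 258 and 223. The DMSO signals of set b were under 100.

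**Figure D2:**
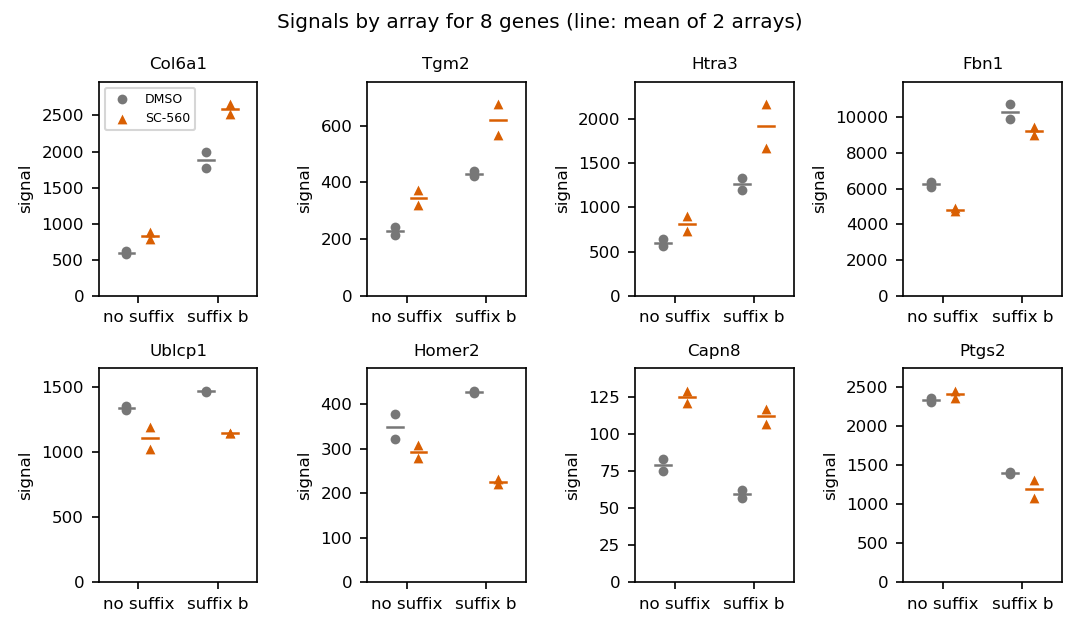
Signal (linear axis from 0) on each array for 8 genes, with arrays without the suffix on the left and with suffix b on the right of each panel, DMSO as grey circles and SC-560 as orange triangles; lines mark the mean of 2 arrays. In Col6a1 the DMSO arrays lie at 579 and 619 and at 1770 and 1996, below the SC-560 arrays of the same set, and in Ptgs2 the SC-560 arrays lie above DMSO in the set without the suffix and below it in set b.

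The named genes were the 12 in each direction with the largest log2 change among genes with an unadjusted p under 0.01, a mean of 200 or more in whichever group was brighter and the same sign in both label sets, and none was called. Fras1, Syp, Lipe, Cracr2b, Klhl20 and Giot1 passed this minimum in 1 group only, with means of 111 to 145 in the other. The other genes on the higher side had log2 changes from 0.43 to 0.85 and adjusted p-values from 0.17 to 0.35. They were Syp, a protein of secretory vesicles, the lipase gene Lipe, the Rap regulator Sipa1, the potassium channel gene Kcnh3, the chemokine gene Cxcl3, Nckap5l, Ccdc61 and Cracr2b. Nckap5l had 0.62 on 1385485_x_at and -0.0097 on its other probe set, and the other 4 probe sets of Cxcl3 had 0.14 to 0.29. Sipa1 had 210, 217, 257 and 228 with DMSO and 270, 335, 379 and 397 with SC-560, with no overlap between the groups (0.50 ± 0.097, adjusted p 0.17). Syp lay at 79 to 127 on the DMSO arrays and at 125, 171, 388 and 355 on the SC-560 arrays, so that its 0.85 came mostly from set b (1.52).

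The genes on the lower side had log2 changes from -0.53 to -0.30. Ublcp1, a phosphatase of the nuclear proteasome, had 1353, 1324, 1467 and 1462 against 1194, 1019, 1144 and 1146 (-0.30 ± 0.061, adjusted p 0.17). Every SC-560 array lay below every DMSO array. Homer2, a scaffold protein of receptor complexes, had 321, 377, 429 and 424 against 307, 279, 221 and 231 (-0.50 ± 0.12, adjusted p 0.243), again with no overlap. Terf2, a telomere-binding protein, had 541 to 618 against 428 to 498 (-0.31 ± 0.078, adjusted p 0.243). The groups also did not overlap in Pnpla8, a phospholipase, in the ubiquitin ligase gene Rnf5 and in Klhl20. Genes on both sides were chosen by p and size of change on the same arrays. Lack of overlap partly follows from that choice and adds no support. Under the looser condition of no overlap in each label set, 4.43% of all genes lay below DMSO and 4.86% above. Aff4, Ttc8, Shox2, Giot1, Depdc1 and Mdn1 completed the 12. The other probe sets of Aff4 had 0.082 and 0.069, against -0.32 on the one named, and those of Pnpla8 -0.15 and 0.057. Those of Terf2 had -0.061 and -0.25, and that of Shox2 had -0.17, with overlap between the groups in each.

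The cyclooxygenase pathway was measured in part. Ptgs1, the gene of the enzyme SC-560 prefers, had signals of 2.89 to 45.9 on 1 probe set and 2.49 to 35.5 on the other over the 8 arrays, below the minimum of 100 on every array, so it was not tested. Ptgs2, which encodes cyclooxygenase-2, had 2309, 2358, 1386 and 1416 with DMSO and 2452, 2368, 1081 and 1311 with SC-560. Its log2 change was 0.046 in the set lacking the suffix, -0.23 in set b and -0.09 ± 0.071 in all (95% interval -0.24 to 0.063, adjusted p 0.722). The interaction of treatment and label set for Ptgs2 had an unadjusted p of 0.0503 (adjusted 0.844). Of the 14 genes of prostaglandin synthesis measured of 19, 7 lay above 0 and 7 below. Only Ptges2, a prostaglandin E synthase, had an unadjusted p under 0.05, with 357, 252, 484 and 319 against 340, 335, 602 and 546 (0.32 ± 0.13, adjusted p 0.474). The groups overlapped in it. The inducible synthase Ptges lay near the minimum, at 62 to 108 with DMSO and 82.3 to 127 with SC-560 (0.16 ± 0.13, adjusted p 0.735). The cytosolic phospholipase Pla2g4a (-0.066 ± 0.081), the prostacyclin synthase Ptgis (0.027 ± 0.079) and the constitutive synthase Ptges3 (-0.00026 ± 0.037) had standard errors as large as their log2 changes or larger.

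Calpains are calcium-dependent proteases that cut proteins of focal adhesions during cell migration. Of 16 genes of this family and its inhibitor, 9 were measured, with a median log2 change of 0.041. Capn8 had 75, 82.9, 56.7 and 62.1 with DMSO and 129, 121, 107 and 117 with SC-560 (0.50 ± 0.13, unadjusted p 0.00171, adjusted p 0.255). The groups did not overlap, yet the DMSO signals were under 100 on every array. Capn7 lay lower (-0.17 ± 0.057) and Capn10 higher (0.23 ± 0.11) at an unadjusted p under 0.05. At that p 5.33% of all genes lay above and 3.95% below DMSO. Capn1, the micro-calpain, had 0.02 ± 0.074, and Capn2, the milli-calpain, had 0.041 ± 0.046, at 3130 to 3457 with DMSO and 3310 to 3524 with SC-560. The regulatory subunit Capns1 had 0.09 ± 0.043 and the inhibitor calpastatin, Cast, -0.071 ± 0.049, with adjusted p-values of 0.53 and 0.686.

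Genes of mitosis lay below DMSO as a group. The list covers the kinases, motors and kinetochore proteins that cells make in G2 and use to divide. Of its 36 genes 32 were measured, and 28 of these lay below 0, against 4687 of all 9622 genes. The median signal of the list was 1887, in a range where most probe sets lay below 0 (38.3% above 0 between 1000 and 2000). None was called, 10 were below DMSO and 0 above it at an unadjusted p under 0.05 (3.95% and 5.33% of all genes), and the median log2 change was -0.095. It was -0.059 in the set lacking the suffix and -0.12 in set b, -0.094 after quantile normalization, and between -0.12 and -0.064 when each array was left out in turn. With each array centred on its median it was -0.18, where the median of all genes went from 0.0033 to -0.084. In 5 of the 32 the SC-560 arrays were below the DMSO arrays with no overlap in each label set, against 426 of all 9622 genes (4.43%). The summed signal of the 32 genes was 57604 and 54624 on DMSO arrays 1 and 2 and 53456 and 53805 on SC-560 arrays 1 and 2, and 85856 and 86236 against 79620 and 78883 in set b. Of genes of DNA replication, which cells make before mitosis, 20 of 39 lay above 0, 0 were above and 1 below DMSO at an unadjusted p under 0.05, with a median of 0.0049 (0.054 in the set lacking the suffix, -0.054 in set b). In bulk RNA, fewer dividing cells and less RNA per dividing cell cannot be told apart.

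Cenpf, a kinetochore protein, had 1562, 1436, 2726 and 3103 with DMSO and 1336, 1257, 2381 and 2353 with SC-560 (-0.25 ± 0.058, unadjusted p 0.000871, adjusted p 0.243). Top2a, the topoisomerase that untangles chromosomes, had 2545, 2619, 3791 and 3984 against 2411, 2355, 3243 and 3176 (-0.19 ± 0.049, unadjusted p 0.00164, adjusted p 0.251). In both genes the SC-560 arrays were below the DMSO arrays of the same set. Kif2c, a motor that depolymerises microtubules at centromeres, had 651, 639, 1231 and 1135 against 580, 543, 1039 and 1106 (-0.16 ± 0.064). Aurkb, the kinase of the chromosomal passenger complex, had 1037, 1031, 1486 and 1879 against 1027, 953, 1322 and 1305 (-0.20 ± 0.08), so that the arrays without the suffix were close. Cenpe, a kinetochore motor, had 399, 376, 649 and 697 against 345, 268, 610 and 646 (-0.20 ± 0.089). Mki67, whose protein is the proliferation marker Ki-67, had 4746, 4575, 6724 and 6923 against 4601, 4000, 6089 and 6245 (-0.13 ± 0.047), with overlap in the set without the suffix. Plk1 (0.015 ± 0.087) and Ccnb1 (-0.023 ± 0.06), a kinase and a cyclin that start mitosis, were close to 0.

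Upstream sequences of Cenpf, Top2a, Kif2c and Cenpe, 4 of the 5 mitotic genes that were apart in both sets (the other is Aurkb), are shown because promoters of this class are known for CCAAT boxes, bound by NF-Y, and for an element of the form TTTGAA that represses them before G2. Each line gives the 250 bases before the annotated start from RefSeq, build GRCr8, 5′ to 3′ on the strand of the gene, with CCAAT and TTTGAA in capitals on either strand (ATTGG and TTCAAA on the other).
Cenpf upstream, chr13:103760887-103761136, minus strand: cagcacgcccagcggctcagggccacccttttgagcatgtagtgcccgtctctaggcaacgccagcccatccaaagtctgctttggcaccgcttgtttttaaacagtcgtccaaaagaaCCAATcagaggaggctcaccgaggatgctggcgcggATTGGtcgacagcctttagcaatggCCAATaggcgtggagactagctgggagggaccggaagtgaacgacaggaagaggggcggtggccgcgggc
Top2a upstream, chr10:84473094-84473343, minus strand: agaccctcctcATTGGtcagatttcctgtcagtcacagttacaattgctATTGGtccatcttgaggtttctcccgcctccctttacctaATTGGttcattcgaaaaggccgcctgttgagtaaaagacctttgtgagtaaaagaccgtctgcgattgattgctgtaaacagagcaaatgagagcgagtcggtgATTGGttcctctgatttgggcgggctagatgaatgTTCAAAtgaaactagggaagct
Kif2c upstream, chr5:135899213-135899462, minus strand: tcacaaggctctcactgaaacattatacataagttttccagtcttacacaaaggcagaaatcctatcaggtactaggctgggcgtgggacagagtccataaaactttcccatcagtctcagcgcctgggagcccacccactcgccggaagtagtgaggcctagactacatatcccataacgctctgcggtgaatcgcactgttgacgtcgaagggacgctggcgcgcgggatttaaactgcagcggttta
Cenpe upstream, chr2:226310807-226311056, plus strand: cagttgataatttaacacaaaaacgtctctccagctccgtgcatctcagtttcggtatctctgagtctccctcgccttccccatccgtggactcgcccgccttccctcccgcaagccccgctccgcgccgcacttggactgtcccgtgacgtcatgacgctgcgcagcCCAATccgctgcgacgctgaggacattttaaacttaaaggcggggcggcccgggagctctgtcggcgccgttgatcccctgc
Of the 28 measured mitotic genes with a sequence, 22 (78.6%) held CCAAT in this window, against 36.4% of the 8114 genes tested that had one and 34.3% of all 27457 promoters in the table. TTTGAA was in 13 (46.4%), against 9.81% of the tested genes and 16% of all promoters. All 13 also held CCAAT (46.4% with both motifs, against 3.85% of the tested genes), and the 2 motifs can share a base where they adjoin. Cenpf held 3 matches to CCAAT, Top2a 4 to CCAAT and 1 to TTTGAA, Cenpe 1 to CCAAT, and Kif2c none to either. A match is a description of the sequence. Only exact matches were counted. The 4 genes shown had log2 changes between -0.25 and -0.16 and were chosen as lower in both label sets. Whether the motifs had a part in these changes was not tested.

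Genes of ribosomal proteins lay above DMSO on the deposited scale. All 23 that were measured and named, of 44, had a log2 change above 0, with a median of 0.12 and none called. At an unadjusted p under 0.05, 18 were above DMSO, against 5.33% of all genes. In 14 of the 23 the SC-560 arrays were above the DMSO arrays with no overlap in each set, against 468 of all genes (4.86%). Rplp0, a protein of the ribosomal stalk, had 25495, 25778, 21762 and 22259 with DMSO and 25993, 30090, 26683 and 25873 with SC-560 (0.19 ± 0.044, adjusted p 0.243). Rpl19 had 23336, 22674, 21912 and 21738 against 25574, 26918, 23559 and 22653 (0.14 ± 0.035). The median signal of the list was 23487, in the range where most probe sets lay above 0. After quantile normalization 11 of the 23 lay above 0, the median was -0.0011, and none had an unadjusted p under 0.05. With each array centred on its median the median of the list was 0.036. That centring also took the median of all genes from 0.0033 to -0.084, so the list still lay above it. Rpl30 was the exception in level, with mean signals of 91.9 and 107 and log2 changes of 0.53 in the set lacking the suffix and -0.089 in set b.

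**Figure D3:**
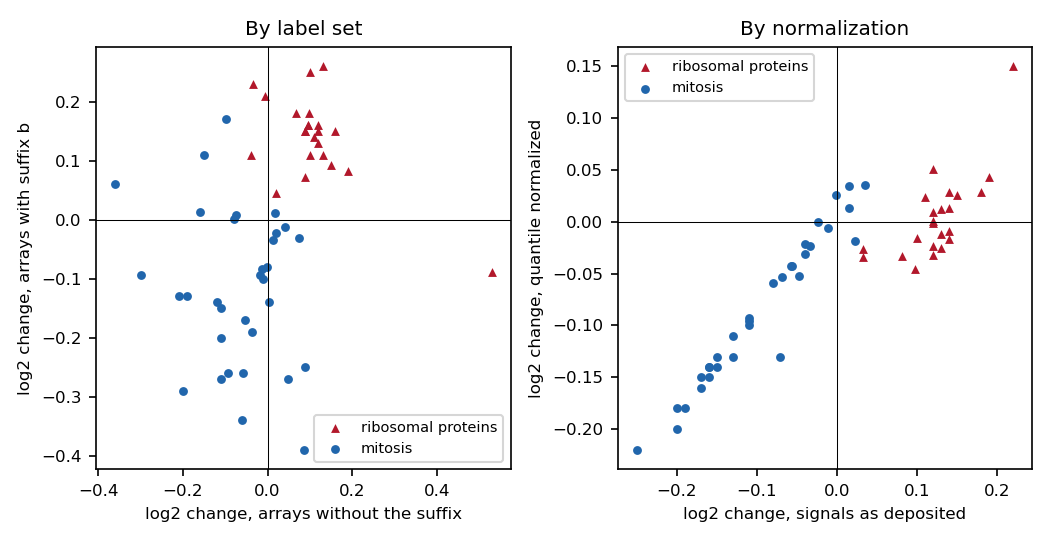
Log2 change of SC-560 against DMSO for 23 ribosomal protein genes (red triangles) and 32 mitotic genes (blue circles), on the left with arrays without the suffix on the horizontal and suffix b on the vertical axis, on the right with deposited signals on the horizontal and quantile-normalized signals on the vertical axis. The mitotic genes keep a median of -0.094 after quantile normalization, while the median of the ribosomal genes goes from 0.12 to -0.0011.

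Without SC-560 array 1, the array that lay among the DMSO arrays, limma called 81 probe sets, 64 above and 17 below DMSO. This array is singled out for its likeness to DMSO, and leaving out such an array widens the difference between groups by construction. Leaving out another array instead gave 0 or 1 call. Of the 81 probe sets 45 had a mean signal of 10000 or more and 15 were named for ribosomal proteins. Of those 15, 7 were on the list used here, led by Rplp0 with an adjusted p of 0.0128. With quantile normalization and without that array, which was tried after the data were seen, 0 probe sets were called and the smallest adjusted p was 0.0944. On the deposited scale without it, 11 of the 32 mitotic and 20 of the 23 ribosomal genes had an unadjusted p under 0.05. Among all 9580 genes then tested, 1207 did. After quantile normalization without it 1860 probe sets had an unadjusted p under 0.05, the median of the ribosomal genes was 0.011, and that of the mitotic genes -0.083.

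Markers of cell types moved by small amounts. Of 12 epithelial markers measured 11 lay above 0 (median 0.11, 0.077 after quantile normalization), against 4935 of all 9622 genes. Their median signal was 446, and 55.8% of probe sets between 200 and 500 lay above 0. At an unadjusted p under 0.05, 1 of these markers was above and 1 below DMSO (5.33% and 3.95% of all genes). Those were Krt8 (0.098 ± 0.041) and the transcription factor gene Klf5 (-0.13 ± 0.056). The summed signal of the 12 was 32935 to 37956 on the DMSO and 34127 to 38938 on the SC-560 arrays. Of 11 fibroblast and smooth muscle markers 9 lay above 0 and 4 were above DMSO at that p, among them Col1a2 (0.17 ± 0.035, adjusted p 0.17) and Vim (0.10 ± 0.029). Their summed signal was 97407 to 121145 and 101334 to 134218, and their median of 0.12 was 0.0058 after quantile normalization. Agr2, which helps fold mucins, had 147, 155, 75.5 and 91.3 against 174, 211, 153 and 116 (0.37 ± 0.13, adjusted p 0.385). The part of cell make-up in the other results was not tested.

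The list medians of stress pathways were near the median of all genes. The list medians were -0.017 for 21 NRF2 targets, which respond to electrophiles and oxidants, -0.0077 for 23 genes of the unfolded protein response, 0.013 for 28 ATF4 targets, -0.0079 for 19 heat shock protein genes and -0.044 for 19 genes of NF-kB and inflammation. Over all genes 5.33% were above and 3.95% below DMSO at an unadjusted p under 0.05. In the NRF2 list 4 were above and 3 below at that p, and 2 and 2 after quantile normalization. Its median near 0 thus covers genes that went either way, though none was called. In the NF-kB list the counts were 1 and 2, and in the ATF4 list 1 and 0. Targets of p53 lay above 0 in 13 of 15, with a median of 0.089, yet only the cell death gene Bbc3 had an unadjusted p under 0.05, at 0.18 ± 0.064. Cdkn1a, the cell cycle inhibitor p21, had 0.049 ± 0.11. Of 25 immediate early genes 18 lay above 0, led by Jund, an AP-1 subunit, with 4261, 4208, 4084 and 3889 against 4872, 4867, 4614 and 4774 (0.22 ± 0.041, adjusted p 0.166). Its groups did not overlap, but Jund was picked from its list by its p on these arrays. Gjb2, the gap junction protein connexin 26, had 4641, 4975, 347 and 307 against 5919, 5356, 507 and 443 (0.35 ± 0.072, adjusted p 0.185), a difference between groups far smaller than that between label sets.

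**Figure D4:**
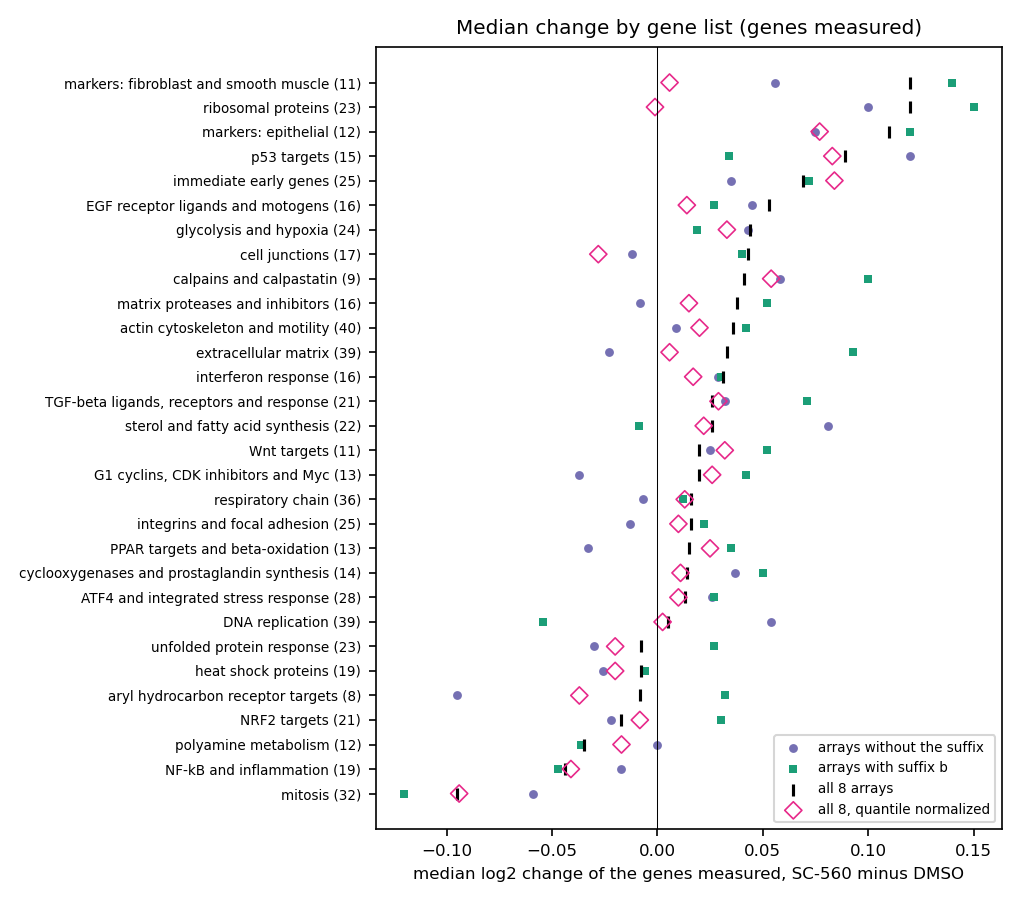
Median log2 change of SC-560 against DMSO for each gene list with at least 8 genes measured (number in brackets), in arrays without the suffix (purple circles), with suffix b (green squares), in all 8 arrays (black ticks) and in all 8 after quantile normalization (open diamonds). All medians lie between -0.12 and 0.15, and the tick and diamond are apart for ribosomal proteins (0.12 and -0.0011) and fibroblast markers (0.12 and 0.0058) and together for mitosis (-0.095 and -0.094).

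Genes that stood out for indomethacin or NS-398 in earlier results of these data were looked up with SC-560, at doses that differ (100 µM for both drugs and 1 µM for SC-560). Of 26 such genes 5 were above DMSO and 2 below it at an unadjusted p under 0.05, and none was called. Over all genes 5.33% were above and 3.95% below at that p. The series holds no other DMSO arrays, so these genes were chosen against the same DMSO arrays used here. Scatter of those arrays can move both comparisons together, so no excess is read from these counts. Fabp4, a fatty acid carrier, had a mean signal of 381 with DMSO, 374 with SC-560, 1040 with indomethacin and 1480 with NS-398. Dock11, a Cdc42 activator, had 1910, 1880, 494 and 863 in the same order, and Nid1, a basement membrane protein, 4940, 4560, 1980 and 2990. Both indomethacin arrays carried the suffix b, so their means are not matched by set. H19, a non-coding RNA, had 3132, 3515, 1815 and 1883 with DMSO and 2388, 2432, 1746 and 1642 with SC-560 (-0.29 ± 0.069, adjusted p 0.243), lower in each set. Scara5, a ferritin receptor, had 615, 584, 519 and 513 against 720, 628, 612 and 664 (0.22 ± 0.074, adjusted p 0.38).

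Whether the label sets gave the same SC-560 effect was tested as an interaction. Limma called 4 probe sets (0.0236%), with a smallest adjusted p of 0.0333. Before adjustment 1007 had a p under 0.05, where 849 would be expected if no effect differed between the sets. The count of calls was 8 without DMSO array 1b, 6 without SC-560 array 1, and 0 without any 1 of the other 6 arrays or without the intensity trend. Across all probe sets the log2 changes in the 2 sets had a correlation of 0.0995. The sets share no array, but the probe sets share their arrays within each, so it is given as a description. In the set without the suffix alone limma called 2 probe sets and in set b alone 4, with 0 in common.

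The largest called difference was on a probe set of Pik3ca, the catalytic subunit p110 alpha of PI3-kinase. Probe set 1393499_at had 573, 573, 221 and 179 with DMSO and 211, 153, 226 and 264 with SC-560, an interaction of 1.68 ± 0.22 (adjusted p 0.0333). The 2 DMSO arrays without the suffix were high and the other 6 arrays lay at 153 to 264. The gene's brightest probe set, 1389143_at, had 831, 839, 919 and 986 against 891, 701, 859 and 999, an interaction of 0.037 ± 0.16, and 3 further probe sets had -0.18 to 0.086. The remaining probe set of Pik3ca, 1379041_at, went the same way as 1393499_at by a smaller amount, at -0.24 in the set lacking the suffix and 0.21 in set b (interaction 0.46 ± 0.14, unadjusted p 0.00725, adjusted p 0.767). For Sparc, a secreted matrix protein, 1367563_at had 5132, 5336, 8678 and 8678 against 7552, 7974, 8635 and 8798 (-0.56 ± 0.077). The other probe set of Sparc, 1367562_at, had 10103, 9102, 11708 and 11616 against 8864, 8875, 13304 and 13088, with an interaction of the opposite sign (0.29 ± 0.08, adjusted p 0.678). Gpt2, a mitochondrial alanine aminotransferase, had 768, 800, 1249 and 1264 against 694, 737, 2067 and 2241 on 1382232_at (0.88 ± 0.12), where SC-560 was lower without the suffix (-0.12) and higher in set b (0.75). Its other probe set, 1384903_at, had an interaction of 0.32 ± 0.24. The unnamed 1385506_at had 1415, 1308, 779 and 544 against 1005, 897, 1235 and 1292, with SC-560 below DMSO in 1 set and above it in the other (1.40 ± 0.19).

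**Figure D5:**
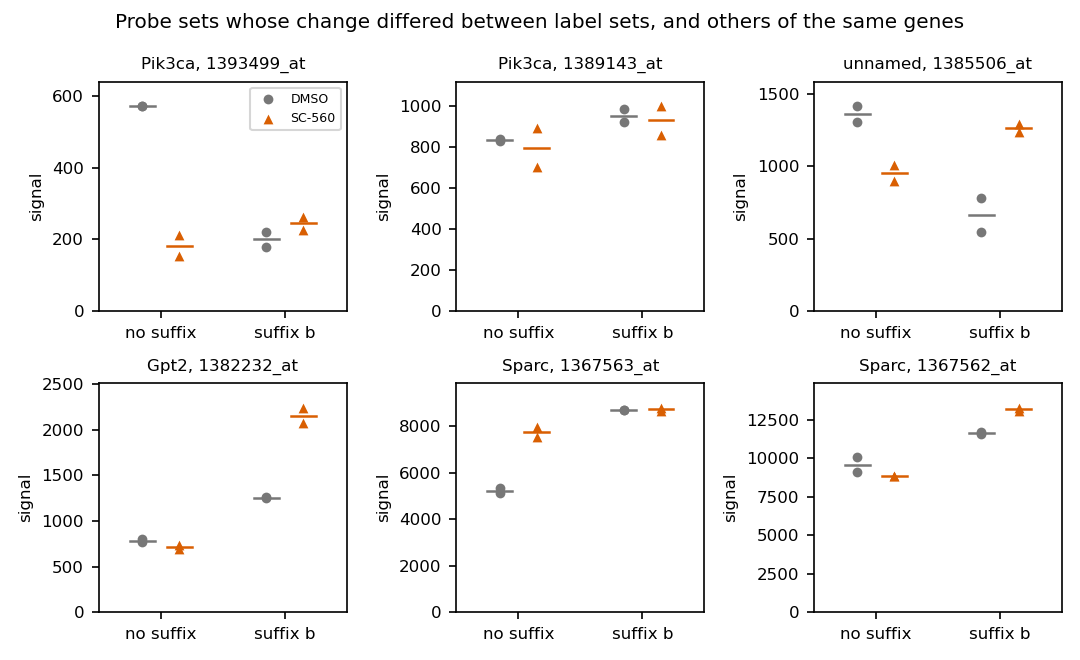
Signal (linear axis from 0) on each array for the 4 probe sets whose SC-560 effect differed between the label sets and, for Pik3ca and Sparc, for the brightest probe set of the same gene; DMSO is shown as grey circles, SC-560 as orange triangles, and lines mark the mean of 2 arrays. On 1393499_at the DMSO arrays without the suffix stand at 573 above the other 6 arrays, and on 1389143_at of the same gene the groups overlap.

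Probe sets of 1 gene also disagreed in the main comparison. Uqcrc2, a core protein of respiratory complex III, had a log2 change at the lower end of the range on 1382280_at, with 3310, 2191, 2802 and 2428 against 1372, 1838, 1713 and 1800 (-0.65 ± 0.11, adjusted p 0.166). Its brighter probe set 1373362_at had 6056, 5660, 5798 and 5527 against 6238, 6287, 5755 and 5464 (0.041, adjusted p 0.809). It was named after its values were seen.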

How the data were processed

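RNA from IEC-6 cells had been amplified by in vitro transcription in 2 rounds and labelled. The deposited values are linear signal intensities per probe set. Per the labels, the authors scaled all probe sets of an array to a target signal of 500, and the mean of each array after trimming 2% at either end was 500.163 to 500.172 over these 8 arrays. The sources used here name no software for summarising probes, and the number of arrays limits the precision. The members, the 37 gene lists (846 genes) and the rules below were chosen with earlier results of these data known.

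The 57 control probe sets were left out. Probe sets reaching a signal of 100 on at least 2 of the 8 arrays were tested. Names came from the platform annotation, brought up to date by gene identifier with a RefSeq table (GRCr8): 20832 of 31099 had 1 symbol, of which 68 kept the annotation's own, 436 had several and 9831 were not listed. Of several probe sets of a gene, the brightest on the log2 scale stood for it. Genes were named by the 12 largest changes in each direction (unadjusted p under 0.01, mean signal of at least 200 in the group where the gene is higher, same sign in both label sets, predicted loci passed over), by calls, as the cyclooxygenase and calpain genes measured, as the member with the smallest unadjusted p under 0.05 in each list and direction, by the 5 smallest p-values of the interaction in each direction, and from a list of genes that stood out for the other drugs. Most of them are given by counts and ranges.

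Log2(signal + 50) was fitted with limma 3.58.1 under R 4.3.3, with group and label set as terms and eBayes with an intensity trend. P-values from limma were adjusted by Benjamini-Hochberg across the whole table of probe sets tested, and calls were made under 0.05. Unadjusted p-values are from the same fit. Errors after ± are standard errors. The fit was tested on simulated data.

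Labels shared by the groups were checked as a pairing. Deviations from the group means correlated between same-labelled arrays (r from 0.78 to 0.81), and as much between labels of 1 set with different digits (0.79 to 0.83). With the set means taken out, same-labelled arrays had r of -0.068 and -0.079, so the labels carried only the set, already a term of the fit.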

Additional observations from a re-analysis of the deposited data

Results flagged for a closer look

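Of 208 groups of 4 arrays checked, over 104 named genes, 3 held an array far from the others by Dixon's test. Among like samples chance alone marks about 1 in 20, which is more than were found. Each group of 4 spans both label sets, so that rate may not hold and a lone array can go unmarked. Amd1, an enzyme of polyamine synthesis, had 651 on DMSO array 1 and 734 to 747 on the other DMSO arrays. Rb1, the retinoblastoma protein, had 397 on DMSO array 2 and 349 to 356 on the others. Ppl, the desmosomal protein periplakin, had 338 on SC-560 array 2b and 232 to 247 on the others. For 4 probe sets the SC-560 effect differed between the label sets in the interaction fit of limma (adjusted p 0.0333). The difference, set b minus the set without the suffix, was 1.68 for Pik3ca (1393499_at), 1.4 for 1385506_at, 0.88 for Gpt2 (1382232_at) and -0.56 for Sparc (1367563_at).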

How the results depend on the processing

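The count of 0 probe sets called was the same with an added constant of 16 or 200, no filter, quantile normalization, no intensity trend, no term for the label set, all 14 arrays in the fit, and with the array label as a replicate block. It was 2 with a signal of at least 200 on at least 4 arrays, 4 with each array centred on its median (Fbn1, 1375422_at, 1382280_at of Uqcrc2 and 1398606_at of Golim4), 2 in the set without the suffix alone, 4 in set b alone, and 154 with a random block for arrays of a group and label set, whose estimated correlation was -0.3. Leaving out each array in turn gave 0 to 81, with 81 without SC-560 array 1 and 1 without DMSO array 2 or without SC-560 array 2. Centring moved the probe sets at an unadjusted p under 0.05 from 987 above and 623 below DMSO to 262 and 2963, and quantile normalization to 706 and 632; no filter gave 2657 in all, no label set term 300 and the random block 2960. Centring shifted the median of all genes from 0.0033 to -0.084. The count of 4 interactions was 0 without the intensity trend and 0 to 8 when each array was left out, with 8 without DMSO array 1b. It was 0 without any of the other arrays but SC-560 array 1. The cause was not tested. The direction of Tmsb4x and Txn1 turned with quantile normalization (-0.0078 and -0.025) and that of Ptgs2 in the set without the suffix alone (0.046). The number of arrays and the pooling of cultures limit what can be said of independent experiments.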
